A study of Sus scrofa with 36 samples.

Results

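CLDN5 and AQP1 are genes of the cells that line blood vessels, the endothelium. They were chosen as the probe sets annotated to CLDN5 or to AQP1 alone, with the highest mean over the 36 arrays to decide where a gene had several. Each of CLDN5 (NCBI gene 396997) and AQP1 (NCBI gene 407773) had 1 such probe set. They are 2 of the 6360 genes with a probe set annotated to that gene alone. Both were lower in mammary glands of ovariectomized pigs given estrogen than in those without it. The difference was larger where haloperidol was given than where bromocriptine was given. In each gene this second result lay near the threshold of significance, which it missed when certain single animals were left out.

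CLDN5 encodes claudin-5, a membrane protein of tight junctions that seals the gap between neighbouring endothelial cells and limits what passes out of the vessel. AQP1 encodes aquaporin-1, a water channel found in the endothelium of many capillary beds and also in red blood cells. Blood vessels of the mammary gland run through its fat and connective tissue and around the milk ducts and lobules, and supply the epithelium as it grows. These roles, and those given below for other genes, are known mostly from human and mouse.

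Expression was measured with 1 Affymetrix porcine array per animal in RNA from the mammary gland of 36 Yucatan miniature pigs, all female and 5 months old, in 9 groups of 4. All animals received BrdU, a label of DNA synthesis, 24 hours before the end. The 32 ovariectomized pigs had 8 days of bromocriptine, which acts on dopamine receptors and holds prolactin low, and then 5 days of further treatment. In groups BE and BEP this was bromocriptine with estrogen, in BEP with progesterone as well, and their counterparts without estrogen were B (bromocriptine alone) and BP (with progesterone). In groups HE, H, HEP and HP haloperidol, which blocks dopamine receptors and lets prolactin rise, took the place of bromocriptine, with the same letters for the added steroids. The 4 sham pigs had intact ovaries and were given 13 days of saline, so they differ from every other group in both surgery and drug.

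Levels are the deposited log2 values from RMA, a method that corrects, normalizes and summarizes the probes of a probe set. A change is a difference of group means on that scale ± SE from limma, and it was called at an adjusted p under 0.05. The array medians lay between 7.83 and 7.91. CLDN5 lay above the lower quartile of its array in 32 of the 36 arrays but above the median in only 12. AQP1 lay above the upper quartile in 33. The lower quartiles were 5.90 to 6.09, so the CLDN5 means of 6.06 in HE and 6.31 in HEP lay close to them. Detection was not measured, and arrays have no read depth, so the number of animals limits the precision. Over all animals the endothelial marker PECAM1, an adhesion molecule of endothelial cells, lay at 10.8 to 12.1. VWF (von Willebrand factor, which binds platelets) lay at 9.74 to 12.2. The endothelial genes CDH5 (VE-cadherin) and KDR (a VEGF receptor) reached lower, at 7.48 to 9.85 and 4.61 to 7.76. The mean level of 11 luminal epithelial markers, which mark the secretory tissue, lay between 9.83 and 11.2 in animals given estrogen and between 8.81 and 10.97 in ovariectomized animals without it. BP animal A stood apart from its group on the first principal component (70.0, against -65.3 to -48.3 in the other BP animals). It lay next to the HE and HEP animals there (41.6 to 68.8), while every other ovariectomized animal without estrogen had a negative value. The results that BP animal A moves most are given with and without it.

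In haloperidol-treated animals the CLDN5 levels with and without estrogen did not meet. CLDN5 was at 6.07, 5.59, 5.999 and 6.58 in HE animals, against 8.36, 8.33, 8.44 and 8.27 in H animals. With progesterone added it was at 5.91, 5.25, 7.21 and 6.86 in HEP animals, against 7.93, 9.14, 8.99 and 7.27 in HP animals. Every HE and HEP animal lay below every H and HP animal, although the highest HEP and the lowest HP animal were only a little apart. Estrogen lowered CLDN5 4.89-fold in HE against H (-2.29 ± 0.44, adjusted p = 0.000573 by limma) and 4.07-fold in HEP against HP (-2.03 ± 0.44, adjusted p = 0.00228). In these comparisons 19.9% and 16.5% of all probe sets were called, and 10.1% and 7.7% fell. Each array measured bulk tissue, in which fewer endothelial cells and less RNA of a gene per cell cannot be told apart.

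AQP1 followed the same order. It was at 9.63, 9.13, 10.08 and 10.24 in HE animals, against 10.86, 11.05, 11.25 and 11.42 in H animals. It was at 9.80, 9.39, 9.87 and 10.08 in HEP animals, against 10.86, 11.52, 11.51 and 11.04 in HP animals. All 8 animals with estrogen lay below all 8 without it. How many of all probe sets separated in such a way was not counted, here or in the other comparisons of ranges. Of all probe sets 19.9% were called in HE against H and 16.5% in HEP against HP. AQP1 fell 2.59-fold in HE against H (-1.37 ± 0.37, adjusted p = 0.00912 by limma) and 2.73-fold in HEP against HP (-1.45 ± 0.37, adjusted p = 0.00818).

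Under bromocriptine the levels overlapped. CLDN5 was at 6.99, 6.84, 6.61 and 7.52 in BE animals, against 7.09, 7.60, 6.68 and 7.99 in B animals, a change of -0.35 ± 0.44 (adjusted p = 0.758 by limma; 95% interval -1.25 to 0.54). AQP1 was at 10.60, 10.79, 10.62 and 11.56 in BE animals, against 10.95, 10.63, 11.45 and 11.24 in B animals, and differed by -0.17 ± 0.37 (adjusted p = 0.874; 95% interval -0.92 to 0.58). The BE and B ranges overlapped over most of their span in both genes. Neither gene was called here, where 3.78% of all probe sets were.

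With progesterone, CLDN5 was at 6.83, 6.44, 6.62 and 6.66 in BEP animals, against 5.98, 7.92, 8.22 and 8.02 in BP animals. AQP1 was at 10.78, 10.81, 10.15 and 10.47 in BEP animals, against 8.79, 11.55, 11.10 and 11.47 in BP animals. In both genes the first BP value, that of animal A, lay below every BEP value, while the other BP animals lay above all of them. The changes, -0.90 ± 0.44 for CLDN5 (adjusted p = 0.303 by limma) and -0.17 ± 0.37 for AQP1 (adjusted p = 0.854), were not called, in a comparison that called 0.784% of probe sets. With BP animal A left out they were -1.42 ± 0.41 (adjusted p = 0.0251 by limma) and -0.82 ± 0.26 (adjusted p = 0.0381), and both were called, where 11.3% of all probe sets were.

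**Figure D1:**
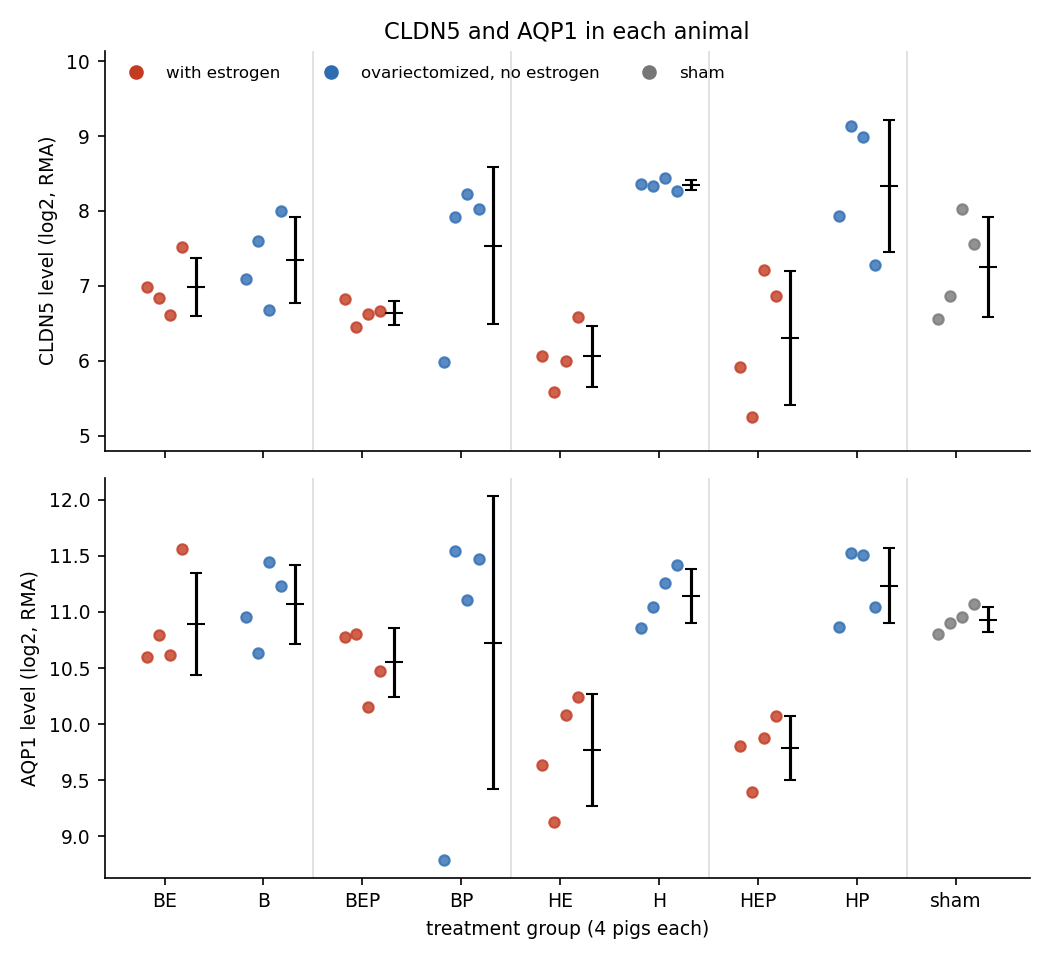
Levels of CLDN5 (top) and AQP1 (bottom) on the log2 scale in each animal of the 9 groups; points are animals A to D and the bar beside them is the mean ± SD (n = 4). CLDN5 spans 5.25 to 7.21 in HE and HEP animals and 7.27 to 9.14 in H and HP animals, and 1 BP animal lies at 5.98.

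Ordered by group mean, CLDN5 was lowest in HE (6.06 ± 0.41, SD, n = 4) and HEP (6.31 ± 0.89), followed by BEP (6.64 ± 0.16), BE (6.99 ± 0.39), sham (7.25 ± 0.67), B (7.34 ± 0.58), BP (7.54 ± 1.05), HP (8.33 ± 0.89) and H (8.35 ± 0.07). Neighbours in this order overlapped in their ranges and none of the 8 neighbouring pairs was called. The haloperidol groups thus took both ends of the order, and sham lay in the middle. The other 3 BP animals averaged 8.05 ± 0.16 (SD, n = 3) without animal A, which leaves BP at the same place.

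AQP1 was lowest in HE (9.77 ± 0.50, SD, n = 4) and HEP (9.79 ± 0.29), followed by BEP (10.55 ± 0.31), BP (10.73 ± 1.31), BE (10.89 ± 0.45), sham (10.93 ± 0.11), B (11.07 ± 0.35), H (11.14 ± 0.24) and HP (11.24 ± 0.33). The widest step between neighbours was the one between BEP and HEP, where the ranges did not overlap, at 0.77 ± 0.37 (adjusted p = 0.337 by limma). The means of the 7 groups above it lay between 10.55 and 11.24, and the SD was largest in BP. The place of BP rests on animal A: the other 3 BP animals averaged 11.37 ± 0.24 (SD, n = 3), above the means of all 8 other groups.

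Averaged over the other treatments, estrogen lowered CLDN5 2.62-fold (-1.39 ± 0.22, adjusted p = 1.57e-05 by limma) and AQP1 1.73-fold (-0.79 ± 0.18, adjusted p = 0.00137). Estrogen moved much of the array: 35.1% of all probe sets were called in either direction, 17.6% fell and 17.5% rose. Each of the 16 animals given estrogen lay below the median CLDN5 level of the 16 ovariectomized animals without it (5.25 to 7.52, median 6.61, against 5.98 to 9.14, median 8.01). For AQP1 this held for 15 of 16 (9.13 to 11.56, median 10.197, against 8.79 to 11.55, median 11.17). Without BP animal A, which made up the low end of the animals without estrogen, the average changes were -1.52 ± 0.19 for CLDN5 and -0.95 ± 0.12 for AQP1.

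On the log2 scale CLDN5 fell by more than AQP1. The difference between the 2 genes was taken in each animal, and it was 0.60 lower on average in the 16 animals given estrogen than in the 16 without it (permutation test with 100000 permutations, two-sided, p = 0.00346). It was lower by 0.58 without BP animal A (permutation p = 0.00538). These are changes of 2 probe sets, which need not respond in proportion to the same change in transcript.

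The effect of estrogen differed between the drugs. For CLDN5 the effect of estrogen with haloperidol minus that with bromocriptine was -1.53 ± 0.44 (adjusted p = 0.0316 by limma), and for AQP1 it was -1.24 ± 0.37 (adjusted p = 0.0378). Of all probe sets, 7.48% were called for this interaction, 3.62% with a negative and 3.87% with a positive sign. Both calls lay near the threshold. With BP animal A left out the interaction was -1.27 ± 0.39 for CLDN5 (adjusted p = 0.0508 by limma), which was not called, and -0.92 ± 0.24 for AQP1 (adjusted p = 0.0260), in a fit that called 4.95% of probe sets. Leaving out single animals ended the CLDN5 call in 7 of 32 cases (BP A, HEP A, HE B, HP B, HEP B, HP C and BE D) and the AQP1 call in 10 (HEP A, B B, BEP B, HE B, HP B, HEP B, H C, HP C, BE D and H D), with adjusted p from 0.0506 to 0.0695.

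Haloperidol was also set against bromocriptine at each combination of the steroids. Among animals given estrogen, AQP1 was 2.18-fold lower in HE than in BE (-1.12 ± 0.37, adjusted p = 0.0466 by limma), where 10.5% of all probe sets were called and 5.05% fell, and 7 of the 8 HE and HEP animals lay below all 8 BE and BEP animals. That call was lost without BE A, HE A, BE B, HE B, HE C or BE D (adjusted p = 0.0599 to 0.168). CLDN5 differed by -0.93 ± 0.44 in HE against BE (adjusted p = 0.173). Among animals without estrogen the larger difference was in CLDN5, at 1.01 ± 0.44 in H against B (adjusted p = 0.426), where 0.0337% of all probe sets were called, and AQP1 differed by 0.08 ± 0.37 (adjusted p = 0.964). Of the 8 H and HP animals 6 lay above all 8 B and BP animals in CLDN5, and 0 did in AQP1. With progesterone added the changes were 0.80 ± 0.44 for CLDN5 and 0.51 ± 0.37 for AQP1 in HP against BP (0% of probe sets called by limma, 1006 at an unadjusted p under 0.05). Those of HP against BP were 0.28 ± 0.41 and -0.14 ± 0.26 without BP animal A, so AQP1 turned its direction. In HEP against BEP the changes were -0.33 ± 0.44 for CLDN5 and -0.77 ± 0.37 for AQP1 (1.08% of probe sets called). Whether the 2 genes differ in their response to haloperidol was not tested.

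Averaged over estrogen and progesterone, haloperidol changed CLDN5 by 0.14 ± 0.22 (adjusted p = 0.769 by limma; 95% interval -0.31 to 0.58) and AQP1 by -0.33 ± 0.18 (adjusted p = 0.302; 95% interval -0.70 to 0.05), where 6.98% of all probe sets were called. The AQP1 change was -0.49 ± 0.12 without BP animal A and was called (adjusted p = 0.00808 by limma), where 11.7% of probe sets were. For CLDN5 that average combines positive values without estrogen and negative values with it, none of them called.

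Progesterone gave no call in either gene. Its average change was 0.02 ± 0.22 for CLDN5 (adjusted p = 1.00 by limma; 95% interval -0.43 to 0.47) and -0.14 ± 0.18 for AQP1 (adjusted p = 1.00; 95% interval -0.52 to 0.23), and 0.0914% of all probe sets were called. Across its comparisons within BP against B, BEP against BE, HP against H and HEP against HE, CLDN5 changed by 0.19, -0.35, -0.01 and 0.25 and AQP1 by -0.34, -0.34, 0.09 and 0.01. The first of each, BP against B, was 0.71 ± 0.41 for CLDN5 and 0.31 ± 0.26 for AQP1 without BP animal A, a turned direction for AQP1, and neither was called. In these comparisons 0.024%, 0.149%, 0% and 0.476% of all probe sets were called by limma, with 568 at an unadjusted p under 0.05 in HP against H. The interaction of estrogen with progesterone was -0.14 ± 0.44 for CLDN5 and -0.04 ± 0.37 for AQP1, and neither was called, where 0.25% of all probe sets were. For the interaction of haloperidol with progesterone, and of all 3 factors, limma called 0% of probe sets (971 and 918 at an unadjusted p under 0.05).

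**Figure D2:**
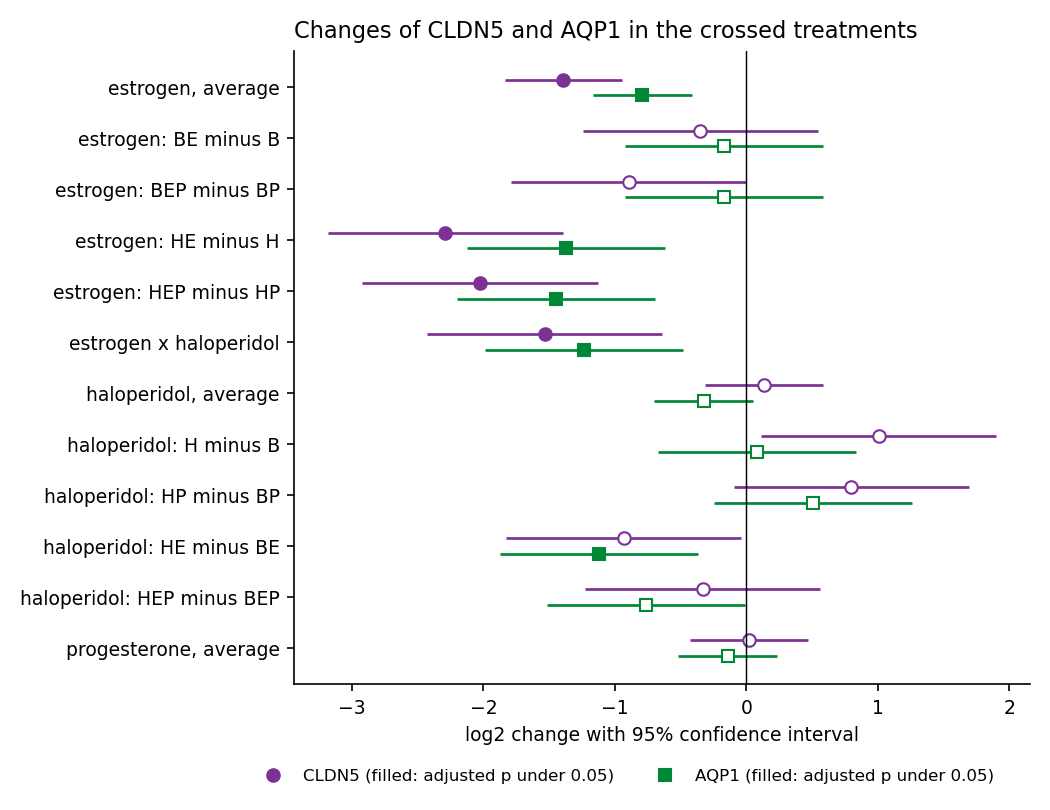
Log2 changes of CLDN5 (circles) and AQP1 (squares) for each treatment comparison, with 95% confidence intervals; filled symbols were called at an adjusted p under 0.05. The estrogen effects with haloperidol, -2.29 and -2.03 for CLDN5 and -1.37 and -1.45 for AQP1, lie left of those with bromocriptine.

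Against the ovary-intact sham animals neither gene was called by limma in any of the 8 ovariectomized groups. The largest AQP1 values were in HE (-1.16 ± 0.37, adjusted p = 0.0720 by limma) and HEP (-1.15 ± 0.37, adjusted p = 0.128), where 3.61% and 0.731% of all probe sets were called. The other shares were 4.18% in B, 0.63% in BE, 0.13% in BP and 0.164% in BEP. All 8 HE and HEP animals lay below all 4 sham animals, which were at 10.80, 10.90, 10.96 and 11.07. Without BP animal A, which enters only the estimate of the spread, both were called (adjusted p = 0.00247 and 0.00765 by limma).

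CLDN5 was at 6.55, 6.87, 8.03 and 7.56 in sham animals, and 5 of the 8 HE and HEP animals lay below all of them. Its change was -1.19 ± 0.44 in HE (adjusted p = 0.122 by limma) and -0.94 ± 0.44 in HEP (adjusted p = 0.266). In the other direction it was 1.10 ± 0.44 in H (adjusted p = 0.157) and 1.08 ± 0.44 in HP (adjusted p = 0.196), where 4.04% and 2.75% of all probe sets were called. B differed from sham by 0.09 ± 0.44 in CLDN5 and by 0.13 ± 0.37 in AQP1, with 95% intervals of -0.80 to 0.98 and -0.62 to 0.89.

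Animals low in one of the genes tended to be low in the other. Among the 16 animals given estrogen Pearson's r was 0.774 (permutation p = 0.000470, adjusted 0.000940) and Spearman's rho 0.582 (permutation p = 0.0195, adjusted 0.0391), and without HE B and HEP B, the 2 farthest from the median CLDN5 level, r was 0.626 (permutation p = 0.0160). Among the 16 without estrogen r was 0.665 (permutation p = 0.00909) and rho 0.426 (permutation p = 0.101), and r was 0.544 without B C and BP A (permutation p = 0.0450). It was 0.300 without BP animal A alone (permutation p = 0.276), so that relation depends on which animals are kept. Adjustment ran over these 2 sets of animals, and each set mixes 4 treatments. With the group means taken out, r over all 36 arrays was 0.662, and 0.464 without BP animal A.

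**Figure D3:**
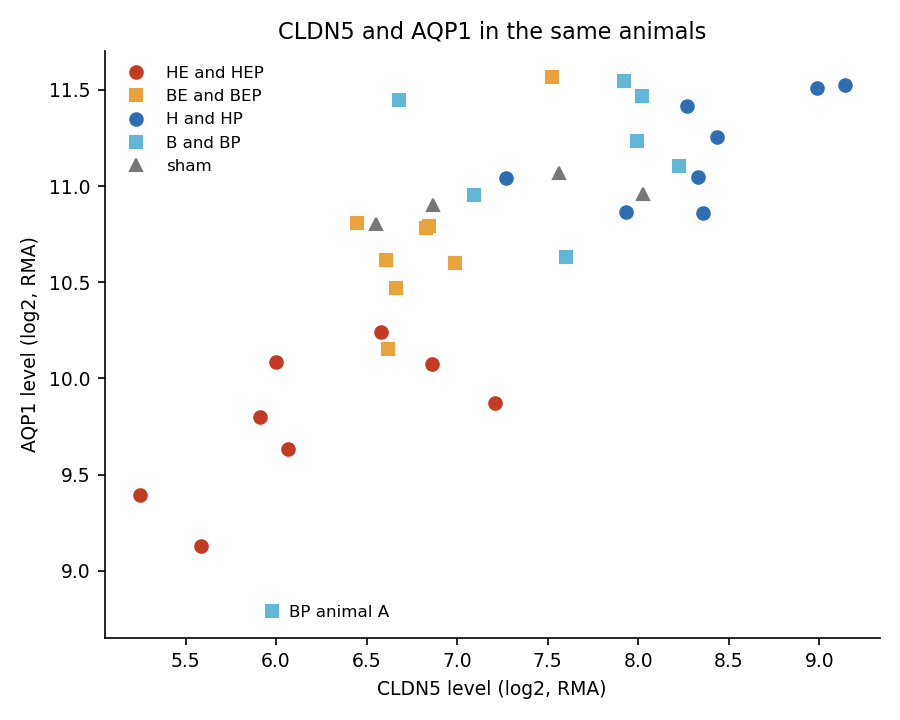
AQP1 level against CLDN5 level (both log2) in each of the 36 animals, with colours and symbols for pairs of groups. HE and HEP animals fill the lower left, H and HP animals the upper right, and BP animal A lies at 5.98 and 8.79, away from the other B and BP animals.

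Of 57 listed endothelial genes 33 had a probe set annotated to that gene alone, 31 of them besides CLDN5 and AQP1. With estrogen 15 of the 31 fell, 2 rose and 14 were not called, where 17.6% of all probe sets fell and 17.5% rose, and their median change was -0.38, against 0.01 over all probe sets. Counted from the lowest, CLDN5 ranked 2 and AQP1 5 of the 33. The counts were also 15 and 2 without BP animal A, in a fit that called 41.7% of all probe sets, against 35.1% with it. The gene lists were chosen with earlier results of these data known, so counts over them are descriptions.

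Among junction and adhesion genes PECAM1 (-0.52 ± 0.09, adjusted p = 5.20e-05 by limma) and ICAM2, an adhesion molecule of endothelial cells (-0.61 ± 0.16), fell. CDH5, or VE-cadherin, which joins endothelial cells at adherens junctions, was not called (-0.17 ± 0.17, adjusted p = 0.459). CLDN5 had the lowest value of the 5 genes measured on this list.

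Receptors that fell included LYVE1, a hyaluronan receptor of lymphatic endothelium (-0.95 ± 0.25), TIE1 (-0.75 ± 0.14) and TEK (-0.68 ± 0.15) of the angiopoietin pathway, and ENG, a TGF-beta co-receptor (-0.71 ± 0.14). EDNRB, an endothelin receptor (-0.70 ± 0.21), and S1PR1, a sphingosine-1-phosphate receptor (-0.55 ± 0.10), fell as well. KDR, the main VEGF receptor of endothelium, was not called (0.05 ± 0.24, adjusted p = 0.890).

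Of the remaining endothelial genes GPIHBP1, which carries lipoprotein lipase to the capillary lumen, fell by the largest amount (-1.76 ± 0.20, adjusted p = 1.20e-07 by limma). EGFL7, a secreted endothelial factor (-0.82 ± 0.14), NOS3, the endothelial nitric oxide synthase (-0.77 ± 0.13), and VWF (-0.73 ± 0.17) fell, and so did ERG, a transcription factor (-0.51 ± 0.12). The 2 that rose were CD93, a membrane glycoprotein (0.63 ± 0.18), and TM4SF1, a tetraspanin-like protein (0.35 ± 0.09), the second of which was named after its value was seen.

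Within each drug, 12 of the 31 fell and 0 rose in HE against H, and 11 fell and 1 rose in HEP against HP, and limma called 0 in BE against B (1 at an unadjusted p under 0.05) and 0 in BEP against BP (8 at an unadjusted p under 0.05). Of all probe sets 10.1% fell in HE against H and 7.7% in HEP against HP, and 3.78% were called in BE against B and 0.784% in BEP against BP. Without BP animal A, 1 fell in BE against B and 4 in BEP against BP, and 13 fell and 1 rose in HE against H and likewise in HEP against HP. In that fit 5.12%, 11.3%, 23.2% and 20.9% of all probe sets were called in these comparisons, in that order. The difference in counts was not tested. The gene that rose in HEP against HP in the whole set was SELE, or E-selectin (1.35 ± 0.45), named after its value was seen; its mean level of 3.61 was under every array's lower quartile. Haloperidol and progesterone, each averaged over the other treatments, gave 0 calls among the 31 (5 and 2 at an unadjusted p under 0.05). GPIHBP1 changed by -2.16 ± 0.41 in HE against H and by -1.35 ± 0.41 in BE against B (adjusted p = 0.0568 by limma). For the interaction itself 3.62% of all probe sets were called with a negative and 3.87% with a positive sign. Of the 31 genes 4 were called, all negative, and the median over the 31 was -0.39 against -0.01 over all probe sets. They were GPIHBP1 (-1.51 ± 0.41), PROCR, the protein C receptor (-1.18), GATA2, a transcription factor (-1.004), and GNG11, a G protein subunit (-0.81), of which the last 3 were named after their values were seen. CLDN5 had the lowest value of all 33 and AQP1 ranked 4. For the interaction 2 of the 31 were called without BP A, H B, HP B or HEP B, and 8 without BP B.

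**Figure D4:**
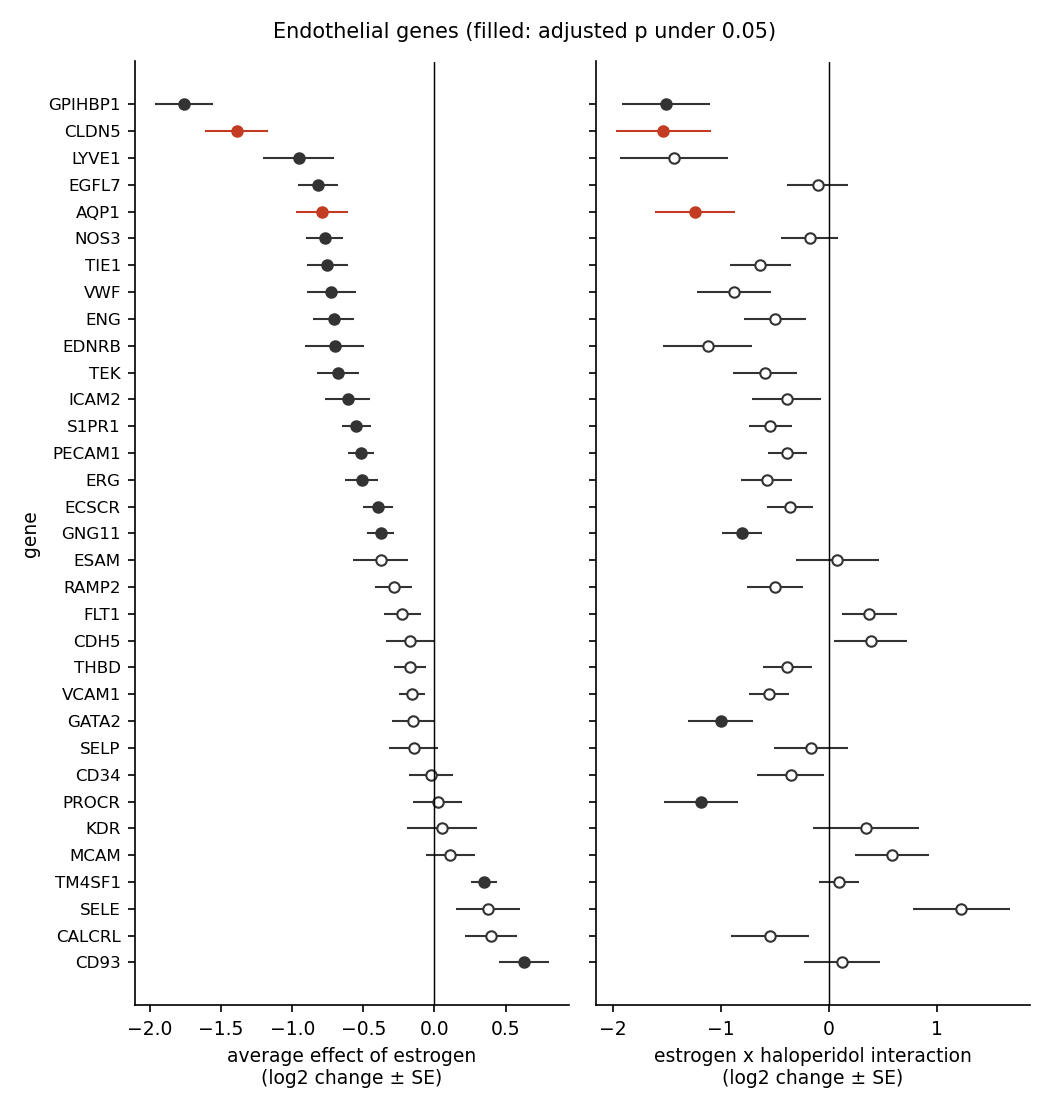
Log2 changes ± SE of the 33 measured endothelial genes for the average effect of estrogen (left) and for its interaction with haloperidol (right), with CLDN5 and AQP1 in red; filled points were called at an adjusted p under 0.05. CLDN5 (-1.39) and AQP1 (-0.79) lie among the lowest 5 on the left, where GPIHBP1 is lowest at -1.76.

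In the claudin family calls with estrogen went both ways, where 17.6% of all probe sets fell and 17.5% rose. Of the 6 other claudins measured, CLDN6 (1.39 ± 0.19) and CLDN7 (0.66 ± 0.21), which are found in epithelia, rose with estrogen, and CLDN11, known from myelin and the testis, fell (-0.71 ± 0.19). CLDN3, CLDN4 and CLDN10 were not called. The mean level of CLDN6, 5.12, was also under the lower quartile of each array, as was that of EGFL7, 5.65. The interaction with haloperidol was positive for CLDN3, an epithelial claudin (1.62 ± 0.34, adjusted p = 0.00667 by limma), and negative for CLDN5.

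Of the 4 other aquaporins, AQP3, a water and glycerol channel (0.90 ± 0.13), and AQP5, a water channel of glands (0.41 ± 0.13), rose with estrogen, and AQP8 and AQP11 were not called. With estrogen 17.5% of all probe sets rose. Haloperidol raised AQP5 on average (0.44 ± 0.13, adjusted p = 0.0380 by limma), where AQP1 was not called. Of 4 other tight junction genes limma called 0 with estrogen (1 at an unadjusted p under 0.05).

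**Figure D5:**
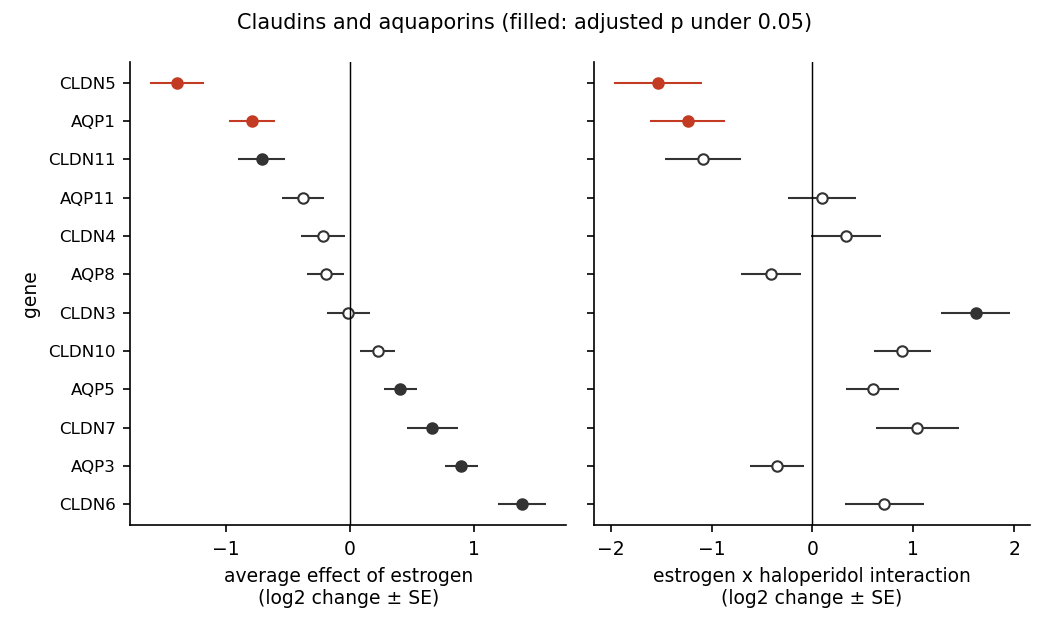
Log2 changes ± SE of the 7 measured claudins and 5 measured aquaporins for the average effect of estrogen (left) and its interaction with haloperidol (right); filled points were called at an adjusted p under 0.05. CLDN5 (-1.39) and AQP1 (-0.79) are in red at the low end, and CLDN6 (1.39) and AQP3 (0.90) rose.

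Of 11 measured genes of signals that act on vessels, 6 fell with estrogen and 1 rose, against 17.6% and 17.5% of all probe sets. VEGFB, a ligand of VEGF receptor 1 (-0.94 ± 0.15), EPAS1, a hypoxia-regulated transcription factor (-0.84 ± 0.18), and ANGPT2, a ligand of TEK (-0.71 ± 0.12), fell, as did ANGPTL4, an inhibitor of lipoprotein lipase (-0.76 ± 0.22). NOTCH4 (-0.57 ± 0.14) and its ligand gene DLL4 (-0.32 ± 0.12) also fell. The mean level of DLL4, 5.53, was under the lower quartile of each array. HIF1A rose (0.27 ± 0.09) and was named after its value was seen, and VEGFA was not called (-0.15 ± 0.10, adjusted p = 0.263 by limma). The interaction with haloperidol was negative in 2 of the 11, ANGPTL4 (-1.98) and NRP2, a co-receptor of VEGF and semaphorins (-1.31), the second also named after its value was seen. Of all probe sets 3.62% were called with a negative interaction.

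Genes of other cell types moved with estrogen in the same animals, in a comparison where 17.6% of all probe sets fell and 17.5% rose. Of 12 adipocyte markers 9 fell, and their mean level was 7.86 to 10.1 in animals given estrogen, against 8.56 to 10.8 in ovariectomized animals without it. Of the same 12, 7 had a negative interaction with haloperidol, the direction of CLDN5 and AQP1, where 3.62% of all probe sets were called negative. The mean level of the 12 was 7.86 to 9.44 in HE and HEP, against 9.88 to 10.7 in H and HP. Of 12 skeletal muscle markers 11 fell (4.15 to 4.87 in animals given estrogen, against 4.34 to 12.9), and of 9 macrophage and leukocyte markers 3 fell (9.33 to 10.3, against 9.39 to 10.8).

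All 13 cell cycle genes rose (7.67 to 9.38, against 5.90 to 9.05), and so did 3 of 11 luminal epithelial markers. Of 9 fibroblast markers 4 rose (10.19 to 11.04, against 10.09 to 10.60). Among 8 markers of pericytes and smooth muscle, the cells around vessels, 2 rose and 1 fell (8.92 to 9.60, against 8.93 to 9.78). The part of these changes in the results for CLDN5 and AQP1 was not tested.

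Red cells also hold aquaporin-1. Of 3 red cell markers limma called 0 with estrogen (0 at an unadjusted p under 0.05), and HBB, a haemoglobin chain, changed by -0.03 ± 0.14. Averaged over the steroids, haloperidol lowered 2 of the 3, ALAS2, the erythroid enzyme of haem synthesis (-2.56 ± 0.30), and AHSP, a haemoglobin chaperone (-0.86 ± 0.23). For haloperidol 6.98% of all probe sets were called in either direction. The mean levels of ALAS2, 5.43, and AHSP, 4.14, were under the lower quartile of each array.

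Over the 36 arrays the genes most like CLDN5 by Pearson's r were PLBD2 (0.917), ITIH5 (0.889), KANK3 (0.887), TCFL5 (0.886) and YPEL3 (0.879). With the group means taken out and without BP animal A these were 0.591 to 0.691. The genes most like AQP1 were THRA, a thyroid hormone receptor (0.907), PTGES, a prostaglandin E synthase (0.890), ITIH5 (0.890), MCRIP2 (0.887) and SERPING1, an inhibitor of complement (0.881), and these were 0.496 to 0.780 on the same terms. ITIH5 was among the 5 of both. The arrays share treatments and normalization, so these values are descriptions.

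Among the endothelial markers PECAM1 followed both genes (r of 0.865 with CLDN5 and 0.859 with AQP1) and VWF did too (0.826 and 0.825). Once group means were taken out PECAM1 ranked 1 of 6359 genes by r with AQP1 (0.872), and 3 without BP animal A (0.733). Over all arrays r was lower for CDH5 (0.276 with CLDN5 and -0.035 with AQP1) and KDR (0.023 and -0.249). The next values have group means taken out and leave out BP animal A. For CDH5, KDR, PECAM1 and VWF, r with CLDN5 was 0.523, 0.346, 0.500 and 0.604. In the same order r with AQP1 was 0.028, -0.169, 0.733 and 0.488. On the same terms the median r with CLDN5 was 0.282 over the 31 other endothelial genes and 0.45 over the macrophage and leukocyte markers. For AQP1 these medians were 0.084 and 0.265. Over all genes they were 0.1004 for CLDN5 and 0.018 for AQP1. Over the other junction and adhesion genes of endothelium they were higher, at 0.512 and 0.439. Differences between these medians were not tested.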

How the data were processed

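Total RNA from 36 pig mammary glands was hybridized to 1 array per animal. The deposited values were made by the authors with RMA, per the submitters' processing notes; which release or program was used is not given in the sources used here. No source states the base of the logarithm, and the deposited values, 1.55 to 13.7 with nearly equal quantiles, were read as log2, so every fold rests on that reading. Of 20792 probe sets, 9149 carried 1 gene symbol, 178 several and 11465 none here, and 9054 symbols were found in the reference table, with 0 changed.

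A model with 9 group means was fitted to all 36 arrays with limma 3.58.1 (R 4.3.3), with 27 residual degrees of freedom. P-values are two-sided, with Benjamini-Hochberg adjustment across the whole array in each of 27 comparisons, not across comparisons. The fit was tested on simulated data. An interaction is a difference of effects averaged over the remaining factor. List means are means of log2 levels. Permutation tests used scipy 1.17.1.

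The members and gene lists were chosen with earlier results of these data known. Named were CLDN5 and AQP1, up to 6 called members of each list by size, CDH5, PECAM1, VWF and KDR, measured claudins and aquaporins, and the 5 genes most like each member. Titles carry letters A to D. Across groups the mean r of deviations was 0.037 for animals with the same letter, against -0.012 for different letters. It was over 0.1 in 52 of 144 pairs with the same letter and in 101 of 432 with different letters. The mean r was small, so letters were not taken as pairs in the main fit. The design text gives 4 pigs for each combination, so arrays were treated as separate animals. Alternatives were a second quantile normalization, a filter on dim probe sets, centring, a variance trend, array weights, the letter as a block, 1 probe set per gene, fewer groups and each array left out; the complete set of results without BP animal A was added after seeing the data.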

Additional observations from a re-analysis of the deposited data

Results flagged for a closer look

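In BP animal A both genes lay far below the rest of its group, beyond the 95% limit of Dixon's test for 4 samples: CLDN5 was at 5.98 and AQP1 at 8.79. Of 18 groups checked 2 were beyond it, both in this animal, and chance gives about 1 in 20. In the same animal the mean level of the 13 cell cycle genes was 9.05, against 6.42 to 6.64 in the other BP animals. Its adipocyte mean was 8.56, against 9.82 to 10.6, its skeletal muscle mean 9.69, against 4.63 to 6.68, and its mean over the 31 other endothelial genes 8.30, against 8.62 to 8.77. In HE and HEP animals the cell cycle mean was 8.76 to 9.38, the adipocyte mean 7.86 to 9.44 and the endothelial mean 8.16 to 8.64. The skeletal muscle mean was 4.32 to 4.87 in HE and HEP animals, and it reached 12.9 in B and 11.2 in H animals. Why BP animal A stood apart was not tested, nor was the part of these list means in its low CLDN5 and AQP1 levels.

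Among the endothelial, claudin, aquaporin and vessel signal genes, the effect of estrogen with haloperidol differed from that with bromocriptine in 9, by the interaction term of the limma fit. It was lower with haloperidol for CLDN5 (-1.53), AQP1 (-1.24), GPIHBP1 (-1.51), PROCR (-1.18), GATA2 (-1.004), GNG11 (-0.81), ANGPTL4 (-1.98) and NRP2 (-1.31), and higher for CLDN3 (1.62). Of all probe sets 7.48% were called for this interaction, 3.62% with a negative and 3.87% with a positive sign. The calls of CLDN5, AQP1, PROCR, GATA2 and NRP2 were each lost when certain single animals were left out.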

How the results depend on the processing

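The falls of CLDN5 and AQP1 with estrogen, on average and in HE against H and HEP against HP, stayed called under every alternative run: the average was -1.52 to -1.30 for CLDN5 and -0.95 to -0.72 for AQP1 with each array left out. The filter on dim probe sets removed CLDN5, so it gives no CLDN5 value. A second probe set could not be tried because each gene has only 1 annotated to it alone. With the replicate block (letter as a fixed term) the average estrogen change of CLDN5 was -1.39 (adjusted p = 1.23e-05) and its interaction with haloperidol -1.53 (0.0248); the call gained was AQP1 in HE against sham (-1.16, adjusted p = 0.0494).

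With each array left out, the interaction of estrogen and haloperidol was -1.71 to -1.27 for CLDN5 and -1.37 to -0.92 for AQP1, and 2 to 8 of the 31 other endothelial genes had a negative and 0 to 1 a positive one (8 negative with array weights). The average haloperidol change of AQP1 was -0.49 to -0.26, and -0.46 and called with array weights (adjusted p = 0.0289); that of CLDN5 was -0.033 with array weights. AQP1 in HE against BE was not called after a second quantile normalization (adjusted p = 0.0502) or with fewer groups (0.0613). Array weights or fewer groups called AQP1 in HE and HEP against sham, and array weights called CLDN5 in H and HEP against sham.

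Changes that missed the threshold turned sign with single arrays left out. For CLDN5 the ranges were -0.056 to 0.15 for progesterone, -0.40 to 0.036 for estrogen with progesterone, -0.064 to 0.37 for haloperidol with progesterone, -0.63 to 0.021 for HEP against BEP, -0.036 to 0.71 for BP against B, -0.28 to 0.34 for HP against H, -0.051 to 0.60 for HEP against HE and -0.14 to 0.35 for B against sham. For AQP1 they were -0.21 to 0.017 for progesterone, -0.36 to 0.097 for estrogen with progesterone, -0.35 to 0.57 for all 3 factors, -0.82 to 0.099 for BEP against BP, -0.067 to 0.20 for H against B, -0.14 to 0.78 for HP against BP, -0.61 to 0.31 for BP against B, -0.0053 to 0.22 for HP against H, -0.20 to 0.17 for HEP against HE, -0.26 to 0.060 for BE against sham and -0.48 to 0.44 for BP against sham. Array weights gave CLDN5 -0.079 for haloperidol with progesterone, and AQP1 0.42 for all 3 factors, 0.059 for BP against B and 0.25 for BP against sham; a second quantile normalization and centring gave CLDN5 0.0055 and 0.0057 for HP against H. The average estrogen change was -0.13 to 0.069 for CLDN3 and -0.035 to 0.16 for KDR. The correlation without estrogen was 0.300 to 0.805. Of 27 other called genes named for the average effect of estrogen, 26 stayed called in every alternative that gave them a value, and DLL4 did not; of 7 named for the interaction, GPIHBP1, GNG11, ANGPTL4 and CLDN3 did, and PROCR, GATA2 and NRP2 did not. The cause was not tested.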
